A study of Mus musculus with 4 samples.

Results

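The genes described here encode the secreted and membrane-bound metalloproteases that cut the extracellular matrix of the mouse heart, their ADAMTS-like relatives, and the tissue inhibitors of metalloproteinases (TIMPs). They were chosen by symbol alone, as Adamts, Adamtsl or Mmp followed by a number, or Timp1 to Timp4. Of 32285 genes in the matrices, 50 had such a symbol, and the 45 with at least 20 unique molecular identifiers (UMIs, counted cDNA molecules) over the 4 libraries are described. Mmp25, with 23 UMIs, lay just inside that minimum, and Mmp1b, with 16, lay just outside it. The other 4 genes left out were Mmp10 with 5 UMIs, Mmp20 with 3, Mmp8 with 2 and Mmp7 with 0.

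Metalloproteases of these families carry a zinc ion in the active site and are made as inactive proenzymes. Matrix metalloproteinases (MMPs) cut collagens, gelatins, elastin and many other matrix and cell-surface proteins, while the ADAMTS proteases include enzymes for proteoglycans, for the amino-propeptides of fibrillar procollagens, for cartilage oligomeric matrix protein and for von Willebrand factor. ADAMTS-like proteins share the ancillary domains of the ADAMTS family but have no protease domain, and several of them bind fibrillin microfibrils. TIMPs block the active site of these enzymes, and in the heart the balance of proteases and inhibitors is part of how fibrous tissue is laid down and removed.

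Single-nucleus RNA-seq with 10x 3′ chemistry was made from total cardiac nuclei of C57BL/6 mice at 6 months of age. The chip-loading step of the labels' protocol speaks instead of CD45+ immune cells. The nuclei analysed were mostly cardiomyocyte-, fibroblast- and endothelial-like. The 4 genotypes below were compared: wild type (WT), heterozygous Rbm20 mutant (Rbm20_het), homozygous Rbm20 mutant (Rbm20_homo), and homozygous Rbm20 mutant treated with a gene-editing correction (Rbm20_homo_corrected, for short the corrected library). Rbm20 encodes a splicing factor of striated muscle. Hearts of 3 mice were pooled before each library, so every genotype is 1 library and the spread between animals was not measured. No test between genotypes was therefore possible, no p-value is given, and each interval is an exact 95% interval that covers counting error only.

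The matrices held 9494 (WT), 9734 (Rbm20_het), 11611 (Rbm20_homo) and 15153 (corrected) barcodes, of which 41139 nuclei were analysed after filters, with a median of 2363 to 3146 UMIs per nucleus. Nuclei fell into 28 clusters without use of the genes described here, and 17 clusters with 36830 nuclei could be named from marker genes. The other 4309 nuclei, mostly in clusters with markers of more than 1 lineage, were set aside. Ventricular cardiomyocyte-like nuclei were the most numerous with 11376, followed by 10858 fibroblast-like, 6287 endothelial-like, 2946 pericyte-like and 1924 macrophage-like nuclei, and 12 lineages were compared. Different clusters held most of the Rbm20_homo nuclei in the 2 largest lineages. Of the fibroblast-like nuclei, cluster 1 (led by Col6a6 and Gfra1) held 1507 of WT but 295 of Rbm20_homo, whereas cluster 4 (led by Cilp and Postn) held 58 of WT and 2681 of Rbm20_homo. Of the ventricular cardiomyocyte-like nuclei, cluster 0 held 2900 of WT and 85 of Rbm20_homo, and cluster 3 held 42 and 2864. In the corrected library, cluster 1 again held 3072 fibroblast-like nuclei against 151 in cluster 4, and cluster 0 held 2807 cardiomyocyte-like nuclei against 271 in cluster 3. The libraries shared 184 barcode sequences (369 nuclei), and leaving these nuclei out moved none of the 609 ratios of described genes beyond its interval.

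The level of a gene is its count per 1000000 UMIs of non-mitochondrial genes (CPM), from the summed nuclei of 1 lineage in 1 library. Where 4 levels follow a gene without names, they stand in the order WT, Rbm20_het, Rbm20_homo, corrected. CPM is not corrected for gene length, so levels are compared within a gene and not between genes. A lineage was ranked for a gene only where it had at least 20 UMIs over the 4 libraries. Fibroblast-like nuclei had the highest level for 17 of the 45 genes, and for 13 of these in each of the 4 libraries. For Adamts4, Mmp3, Mmp27, Adamts18, Mmp13 and Mmp12 only 1 lineage was ranked, so its place in each library was fixed by that rule. Endothelial-like nuclei were highest for 5 genes, ventricular cardiomyocyte-like nuclei for 4, lymphatic endothelial-like nuclei for 3, and mesothelial-, Schwann-, pericyte- and macrophage-like nuclei for 2 each. Smooth muscle-, B cell- and endocardial-like nuclei were highest for 1 gene each. No lineage reached 20 UMIs for the von Willebrand factor-cleaving Adamts13, the gelatinase Mmp9, Mmp21, Adamts16 or the membrane-anchored Mmp25, whose largest count in any lineage was 4 to 10 UMIs.

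**Figure D1:**
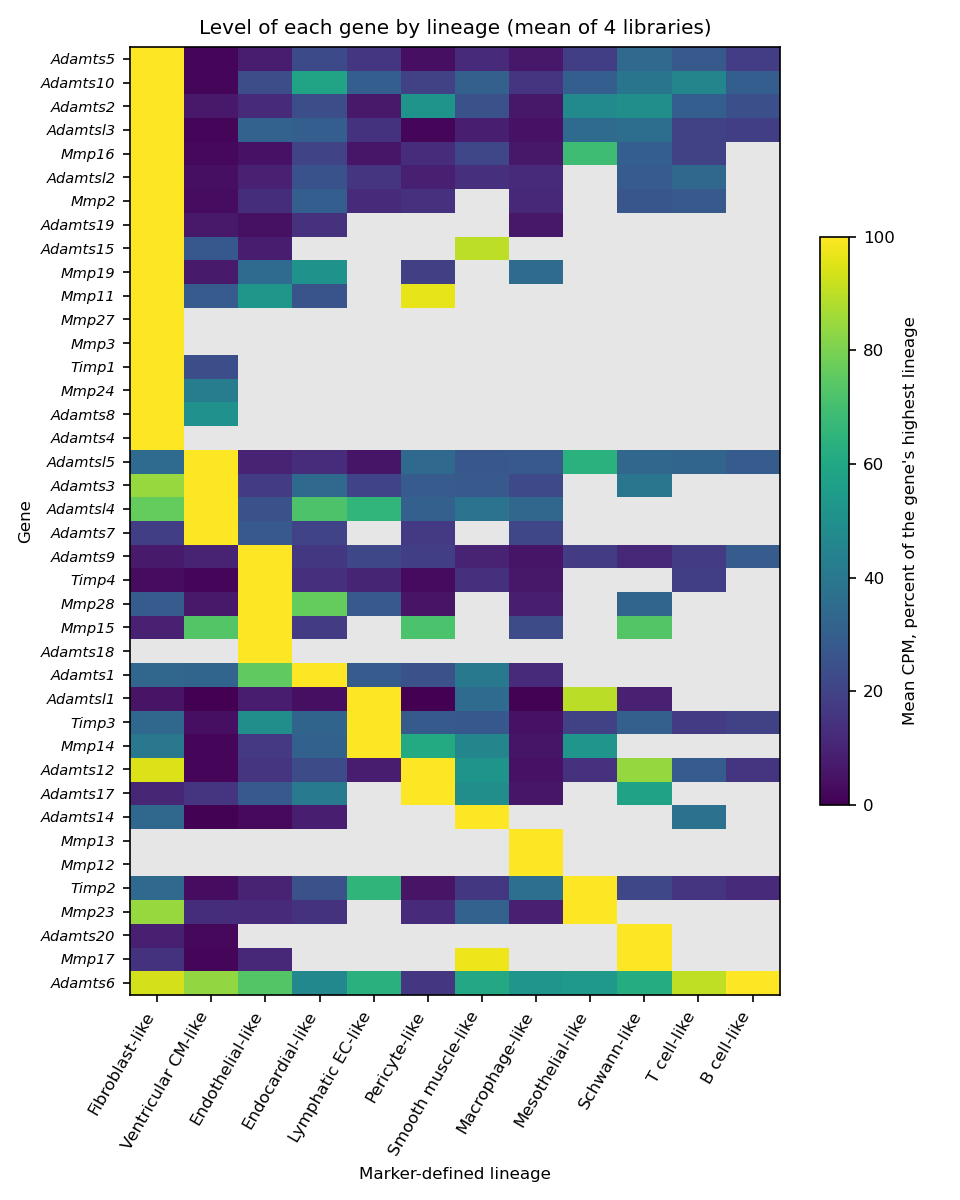
Level of each of 40 genes by lineage, as the mean CPM over the 4 libraries in percent of that gene's highest lineage, with lineages under 20 UMIs in grey. The largest group, 17 genes, is highest in fibroblast-like nuclei, with smaller groups in endothelial-, cardiomyocyte-, lymphatic- and macrophage-like nuclei.

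Genes highest in fibroblast-like nuclei in every library were Adamts19, the proteoglycan-cleaving Adamts5, the procollagen propeptidase Adamts2, and the fibrillin-associated Adamts10 and Adamtsl2. So were the gelatinase Mmp2, the membrane-type Mmp16 and Mmp24, Mmp19 and the inhibitor Timp1. Adamtsl3, Mmp11 (stromelysin-3) and Adamts8 were highest there in 3 libraries, and Adamts15 in 2. Fibroblast-like nuclei were the only lineage ranked for the proteoglycan-cleaving Adamts4, the stromelysin Mmp3 and Mmp27. In the corrected library Adamts4 was at 4.17 CPM in endothelial-like cluster 2 (14 UMIs), against 2.33 in fibroblast-like cluster 1 (17 UMIs). In Rbm20_het cluster 2 had 0 UMIs of Adamts4 and cluster 1 had 1. Adamts9, Timp4 and Mmp28 were highest in endothelial-like nuclei in all 4 libraries and the membrane-type Mmp15 in 2. Adamts18 was ranked in endothelial-like nuclei alone. Adamts7, a protease of cartilage oligomeric matrix protein, was highest in ventricular cardiomyocyte-like nuclei in all 4 libraries, and Adamts3, Adamtsl4 and Adamtsl5 in 3. Lymphatic endothelial-like nuclei were highest for Timp3 and Mmp14 (the membrane-type activator of pro-MMP2) in all 4 libraries and for Adamtsl1 in 3. Macrophage-like nuclei were the only lineage ranked for the collagenase Mmp13 and the metalloelastase Mmp12. Adamts1 was highest in endocardial-like nuclei, Timp2 in mesothelial-like nuclei and Adamts20 in Schwann-like nuclei in all 4 libraries. Adamts14 and Adamts17 were highest in 3 libraries, in smooth muscle- and pericyte-like nuclei, while Adamts12 (pericyte-like), Mmp17 (Schwann-like), Mmp23 (mesothelial-like) and Adamts6 (B cell-like) were highest in the named lineage in 2 libraries or fewer.

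In fibroblast-like nuclei, the Rbm20_homo library had more Adamtsl2, Adamts3, Adamts9, Timp1 and Timp4 than WT, and less of 11 other genes, among them Adamtsl3, Adamts5, Timp3, Mmp11 and Mmp3. A gene was counted as higher or lower at 1.5-fold or more, among genes with at least 50 UMIs over the 2 libraries. By that rule 33 of the 45 genes could be compared, of which 5 were higher and 11 lower in Rbm20_homo. Over all 12389 genes compared in these nuclei, 14.1% were higher and 8.82% lower, 22.9% in all. The median log2 ratio was -0.14 for the 33 genes and 0.05 for all genes. Among the higher genes, the interval of Timp4 included no difference. Adamts9 and Timp4 were far lower here than in endothelial-like nuclei, their highest lineage, where they averaged 641 and 170 CPM. The 10 endothelial markers in fibroblast-like nuclei summed to 218, 229, 227 and 267 CPM. Of these, 3 were at least 1.5-fold higher and 2 lower in Rbm20_homo than in WT, and their part was not tested.

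The largest difference was that of Adamtsl2, a secreted glycoprotein that binds fibrillin and latent TGF-β binding protein (ENSMUSG00000036040, plus strand, chr2:27079379-27108981, GRCm38). Its level was 32.6 CPM (WT), 72.4 (Rbm20_het), 331 (Rbm20_homo) and 88.1 (corrected), from 162, 482, 3093 and 775 UMIs. Rbm20_homo stood far above the other 3 libraries, and WT was the lowest. The Rbm20_homo level was 10.1-fold that of WT (interval 8.66 to 12.0), and the corrected level was 3.75-fold lower than Rbm20_homo (3.47 to 4.07). Rbm20_het was 2.22-fold above WT (1.85 to 2.67) and the corrected library 2.70-fold above WT (2.28 to 3.22).

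The 250 bases before the RefSeq start of 5 genes are shown, since these genes had some of the largest differences in fibroblast-like nuclei in either direction: Adamtsl2, Adamts3 and Timp1 were higher in Rbm20_homo than in WT, and Adamtsl3 and Mmp3 were lower. They were picked after their values were seen. The windows, on GRCm38.p6 and read 5′ to 3′ on the gene's strand, are chr2:27079129-27079378 (Adamtsl2, plus), chr5:89883335-89883584 (Adamts3, minus), chrX:20869916-20870165 (Timp1, plus), chr7:82335444-82335693 (Adamtsl3, plus) and chr9:7445572-7445821 (Mmp3, plus). Capitals mark matches, on either strand, to the AP-1 motif TGANTCA, the GC box GGGCGG, the TATA box TATAAA and the TEAD motif GGAATG.
Adamtsl2: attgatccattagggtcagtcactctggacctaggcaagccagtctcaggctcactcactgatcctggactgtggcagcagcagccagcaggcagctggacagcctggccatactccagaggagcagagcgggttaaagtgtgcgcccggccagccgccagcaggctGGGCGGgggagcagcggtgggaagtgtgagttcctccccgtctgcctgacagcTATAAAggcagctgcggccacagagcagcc
Adamts3: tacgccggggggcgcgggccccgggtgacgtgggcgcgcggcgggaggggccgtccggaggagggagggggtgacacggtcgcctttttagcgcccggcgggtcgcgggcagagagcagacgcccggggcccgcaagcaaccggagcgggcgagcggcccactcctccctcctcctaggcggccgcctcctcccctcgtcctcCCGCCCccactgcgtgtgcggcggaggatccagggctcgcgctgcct
Timp1: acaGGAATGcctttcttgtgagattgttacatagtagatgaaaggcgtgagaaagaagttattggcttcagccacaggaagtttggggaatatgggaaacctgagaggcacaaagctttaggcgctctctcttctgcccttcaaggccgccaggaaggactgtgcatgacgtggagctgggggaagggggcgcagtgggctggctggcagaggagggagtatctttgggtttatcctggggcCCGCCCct
Adamtsl3: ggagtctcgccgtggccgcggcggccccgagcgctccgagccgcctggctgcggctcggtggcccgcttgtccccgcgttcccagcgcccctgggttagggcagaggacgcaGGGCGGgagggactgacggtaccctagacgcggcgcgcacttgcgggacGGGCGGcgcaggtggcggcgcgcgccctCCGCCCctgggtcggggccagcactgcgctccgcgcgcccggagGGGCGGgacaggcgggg
Mmp3: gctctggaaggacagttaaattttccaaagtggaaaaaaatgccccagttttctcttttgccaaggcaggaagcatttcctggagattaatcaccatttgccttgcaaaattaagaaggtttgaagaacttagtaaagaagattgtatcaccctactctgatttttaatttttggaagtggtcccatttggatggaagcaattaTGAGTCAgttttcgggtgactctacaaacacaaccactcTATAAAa
Adamtsl2 has a GC box 83 to 78 bases and a TATA box 30 to 25 bases before the start. Adamts3 has 1 GC box on the other strand, at 47 to 42 bases. The Timp1 window holds a TEAD motif at 247 to 242 bases and a GC box on the other strand at 8 to 3 bases, and that of Adamtsl3 holds 4 GC boxes. Mmp3, alone of these 5, has the AP-1 motif, at 46 to 40 bases, together with TATA box letters at 7 to 2 bases. These lie closer to the start than the TATA box of Adamtsl2. Among 32851 promoter windows of the same length, 6.75% held the AP-1 motif, 32.7% the GC box, 12.4% the TATA box and 12.6% the TEAD motif. Of the 30 described genes with a RefSeq window, 3 held the AP-1 motif (Mmp3, Mmp12 and Mmp13), 20 the GC box, 5 the TATA box and 2 the TEAD motif. A gene was counted if any of its windows matched, whereas the percentages count single windows, so the shares differ in unit. These are matches of letters, and binding was not measured.

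Among the other ADAMTS-like genes, Adamtsl3, whose product is a matrix protein of the punctin group, differed most in fibroblast-like nuclei (ENSMUSG00000070469, plus strand, chr7:82335694-82614450). It was at 492 CPM (WT), 224 (Rbm20_het), 69.0 (Rbm20_homo) and 253 (corrected). WT was thus the highest and Rbm20_homo the lowest, with Rbm20_het and the corrected library close to each other between them. Rbm20_homo was 7.13-fold lower than WT (6.54 to 7.79), Rbm20_het 2.19-fold lower (2.05 to 2.34) and the corrected library 1.95-fold lower (1.84 to 2.06). The corrected library was 3.66-fold above Rbm20_homo (3.35 to 4.004). For Adamtsl1, also of the punctin group, levels were 60.8 CPM (WT), 45.8 (Rbm20_het), 28.7 (Rbm20_homo) and 57.8 (corrected), with Rbm20_homo the lowest. Adamtsl5 was at 106, 74.0, 69.3 and 91.9 CPM, and Rbm20_homo was 1.52-fold under WT (1.36 to 1.71). Adamtsl4, which binds fibrillin-1, differed little, at 53.5, 47.7, 57.7 and 41.2 CPM.

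The 12 cardiomyocyte markers in fibroblast-like nuclei summed to 4879.7, 4453, 3924 and 6641 CPM, with 5 lower by 1.5-fold or more in Rbm20_homo against WT. Their part in the level of Adamtsl5, and of Adamts7 below, which were highest in cardiomyocyte-like nuclei in 3 and 4 libraries, was not tested.

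The 3 propeptidases that remove the amino-propeptide of fibrillar procollagens went different ways. Adamts3, which also activates the lymphatic growth factor VEGF-C (ENSMUSG00000043635, minus strand, chr5:89677087-89883334), was at 39.6 CPM (WT), 66.2 (Rbm20_het), 152 (Rbm20_homo) and 67.2 (corrected). Rbm20_homo was the highest by far, at 3.83-fold WT (3.30 to 4.47), and Rbm20_het and the corrected library had nearly the same level. Adamts2, the main enzyme of this kind in skin, was at 241 CPM (WT), 239 (Rbm20_het), 324 (Rbm20_homo) and 320 (corrected), within 1.5-fold throughout. Adamts14 was at 29.0, 31.4, 15.6 and 61.9 CPM, lowest in Rbm20_homo and highest in the corrected library. The corrected level of Adamts14 was 3.96-fold that of Rbm20_homo (3.30 to 4.79) and 2.13-fold that of WT (1.77 to 2.58).

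Of the 7 proteoglycan-cleaving ADAMTS genes, 5 could be compared between Rbm20_homo and WT, and 1 was higher and 2 lower. Adamts5, the main aggrecan-cleaving enzyme of cartilage and a versican-cleaving enzyme of the heart (ENSMUSG00000022894, minus strand, chr16:85856173-85901828), was at 828 CPM (WT), 798 (Rbm20_het), 414 (Rbm20_homo) and 821 (corrected). Rbm20_homo stood alone, 1.999-fold below WT (1.91 to 2.09), and the other 3 libraries were nearly level. Adamts15, at 28.6, 29.6, 11.7 and 31.8 CPM, also had Rbm20_homo alone low, 2.45-fold below WT (1.90 to 3.18). Adamts9, a versican-cleaving enzyme that also acts at the base of cilia, was at 30.4 CPM (WT), 45.6 (Rbm20_het), 59.0 (Rbm20_homo) and 49.8 (corrected). It was lowest in WT and at least 1.5-fold higher in each of the other libraries. Adamts1 was at 24.4, 24.9, 25.7 and 16.6 CPM and Adamts20 at 8.05, 9.46, 5.99 and 6.82 CPM, neither past 1.5-fold between Rbm20_homo and WT. Adamts4 and Adamts8 had 23 and 28 UMIs in all in these nuclei, at 0.107 to 1.93 and 0.150 to 2.03 CPM, too few to compare.

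Adamts12, which like Adamts7 cleaves cartilage oligomeric matrix protein, was at 237 CPM (WT), 190 (Rbm20_het), 158 (Rbm20_homo) and 445 (corrected). The corrected library was highest, at 2.81-fold Rbm20_homo (2.65 to 2.99) and 1.88-fold WT (1.76 to 2.01). Adamts7 was at 10.3, 9.16, 6.52 and 9.32 CPM, with Rbm20_homo 1.57-fold under WT (1.06 to 2.32), but with nuclei thinned to 1000 UMIs each its log2 ratio turned to 0.38. The ADAMTS genes whose products act on or bind fibrillin microfibrils stayed within 1.5-fold between Rbm20_homo and WT over all fibroblast-like nuclei. Adamts10 was at 678, 567, 490 and 481 CPM and Adamts6 at 126, 117, 184 and 95.3 CPM. Adamts6 was 1.93-fold lower in the corrected library than in Rbm20_homo (1.78 to 2.10). Adamts17 was at 7.24, 7.21, 8.23 and 19.0 CPM. Adamts19, a gene linked to heart valve disease and not counted in that fibrillin group, was at 48.5, 40.4, 71.0 and 96.1 CPM. Both were highest in the corrected library, where Adamts17 was 2.62-fold (1.82 to 3.87) and Adamts19 1.98-fold (1.71 to 2.30) above WT.

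Among the MMP genes, those past 1.5-fold between Rbm20_homo and WT in fibroblast-like nuclei were all lower. Mmp11, stromelysin-3, was at 37.6 CPM (WT), 15.9 (Rbm20_het), 8.23 (Rbm20_homo) and 17.3 (corrected). WT was the highest library, and Rbm20_homo was 4.57-fold below it (3.49 to 6.04). Mmp3, stromelysin-1, which cleaves proteoglycans and activates other pro-MMPs, was at 7.85, 5.86, 1.82 and 6.82 CPM, from 39, 39, 17 and 60 UMIs. Only Rbm20_homo was low, 4.32-fold below WT (2.39 to 8.14). Mmp27 was at 13.5, 12.9, 4.49 and 5.69 CPM, with WT and Rbm20_het high and the other libraries low. Mmp2, the gelatinase of mesenchymal cells, hardly differed, at 125, 117, 119 and 113 CPM.

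Of the 7 membrane-anchored MMPs, 4 could be compared between Rbm20_homo and WT in fibroblast-like nuclei (Mmp14, Mmp16, Mmp17 and Mmp23), and all 4 were within 1.5-fold. Mmp14, which activates pro-MMP2 at the cell surface, was at 22.9 CPM (WT), 20.3 (Rbm20_het), 21.9 (Rbm20_homo) and 41.7 (corrected). Only the corrected library differed, at 1.82-fold WT (1.47 to 2.26) and 1.90-fold Rbm20_homo (1.6005 to 2.27). Mmp16 was at 169, 179, 119 and 139 CPM and Mmp23 at 67.4, 52.3, 61.4 and 52.3 CPM. Mmp15 was at 4.23, 4.95, 2.35 and 5.34 CPM, with only 21 UMIs in WT and 22 in Rbm20_homo. It was compared between the corrected library and Rbm20_homo, and the corrected level was 2.27-fold higher (1.34 to 3.96). Mmp19 (20.3, 21.5, 25.4 and 21.7 CPM) and Mmp28 (25.2, 18.8, 32.8 and 32.3 CPM), which are secreted, also stayed within 1.5-fold between Rbm20_homo and WT. Mmp24 had 50 UMIs over the 4 libraries together, at 1.01 to 2.14 CPM.

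All 4 inhibitors were detected in fibroblast-like nuclei, and they did not move together. Timp3, the inhibitor that binds to the matrix and also blocks several ADAMTS proteases (ENSMUSG00000020044, plus strand, chr10:86300372-86349506), was at 321 CPM (WT), 400 (Rbm20_het), 180 (Rbm20_homo) and 251 (corrected). It was lowest in Rbm20_homo, 1.79-fold below WT (1.67 to 1.91). Timp1, which is often raised in fibrotic tissue (ENSMUSG00000001131, plus strand, chrX:20870166-20874735), was at 1.21, 1.80, 8.23 and 2.39 CPM, from 6, 12, 77 and 21 UMIs. Over all fibroblast-like nuclei Rbm20_homo was the only high library, 6.82-fold above WT (2.99 to 19.2). Timp1 lies within Syn1, a gene on the opposite strand. The level of Syn1 in these nuclei, 1.41, 2.40, 7.80 and 1.71 CPM, was also highest in Rbm20_homo. Next came Rbm20_het for Syn1 but the corrected library for Timp1. Whether reads of the 2 genes were told apart by strand is not given in the sources used here. Timp2 was at 117, 112, 102 and 95.3 CPM. Timp4 was at 3.62, 6.91, 6.20 and 5.69 CPM, lowest in WT, and its Rbm20_homo ratio of 1.71 had an interval of 0.994 to 3.09.

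**Figure D2:**
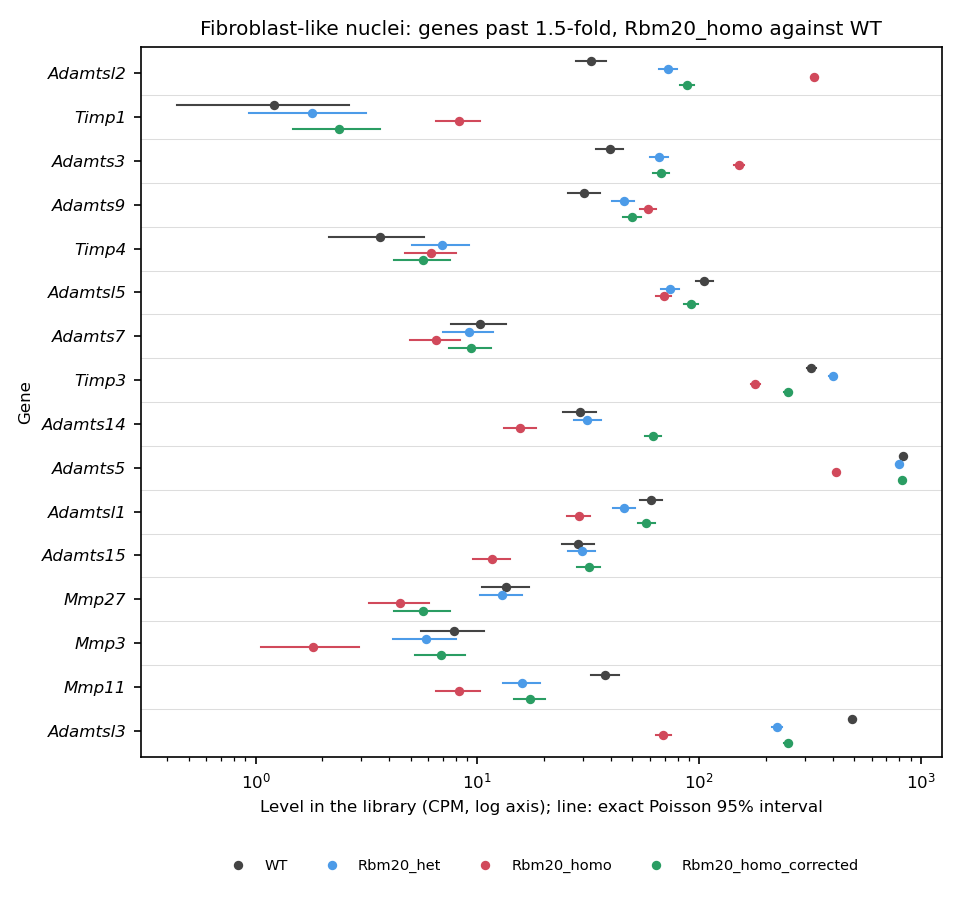
Levels in fibroblast-like nuclei of the genes past 1.5-fold between Rbm20_homo and WT, as CPM on a log axis, with 1 point per library and the exact Poisson 95% interval as a line. Adamtsl2, Adamts3 and Timp1 have their highest point in Rbm20_homo, and Adamtsl3, Mmp11, Mmp3 and Adamts5 their lowest.

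Fewer genes passed 1.5-fold in Rbm20_het. In fibroblast-like nuclei 33 genes could be compared, of which 4 were higher (Adamtsl2, Adamts3, Adamts9, Timp4) and 2 lower (Adamtsl3, Mmp11). Adamts9 and Timp4 were far below their endothelial-like levels in each library. Over all genes compared, 3.90% were higher and 4.08% lower, 7.98% in all. Between the corrected library and Rbm20_homo, 11 of 34 genes were higher and 5 lower (Adamtsl2, Adamts3, Adamts6, Adamts1, Timp1), where 8.20% of all genes were higher and 12.3% lower, 20.5% in all. The higher genes were Adamtsl1, Adamtsl3, Adamts5, Adamts12, Adamts14, Adamts15, Adamts17, Mmp3, Mmp11, Mmp14 and Mmp15. Between the corrected library and WT, 9 of 33 genes were higher and 3 lower (Adamtsl3, Mmp27, Mmp11), against 6.56% and 5.62% of all genes, 12.2% in all. These 9 were Adamtsl2, Adamts3, Adamts9, Timp4, Adamts12, Adamts14, Adamts17, Adamts19 and Mmp14. The comparisons share the WT and Rbm20_homo libraries, so they are not independent of each other.

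Since most Rbm20_homo fibroblast-like nuclei lay in cluster 4 and most others in cluster 1, levels were also read cluster by cluster. Cluster 4 had the highest Postn and Cilp, which mark activated fibroblasts, and cluster 9 (led by Efhd1 and Has2) the highest Pi16 and Dpp4, which mark adventitial fibroblasts, in each library. Adamtsl2 was higher in Rbm20_homo than in WT in all 3 clusters, at 207 against 31.1 CPM in cluster 1, 346 against 129 in cluster 4 and 169 against 22.1 in cluster 9. The folds were 6.65 (5.22 to 8.49), 2.68 (1.77 to 4.29) and 7.63 (4.28 to 13.7). Adamtsl3 was lower in all 3, at 48.7 against 299.8 CPM in cluster 1, 65.7 against 328 in cluster 4 and 315 against 1213 in cluster 9. Cluster 9 was the highest for Adamtsl3 in every library, at 1213 CPM (WT), 687 (Rbm20_het), 315 (Rbm20_homo) and 806 (corrected). Adamts3 was higher in cluster 1 (177 against 41.2 CPM) and cluster 4 (152 against 52.8), but not in cluster 9 (28.1 against 31.8, from 5 and 33 UMIs).

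Other genes differed less, or in the other direction, within single clusters. Adamts5 in cluster 1 was at 742 CPM in WT and 528 in Rbm20_homo, and in cluster 4 at 493 and 394, so that neither cluster reached 1.5-fold. Timp3 was at 357 and 308 CPM in cluster 1 and at 217 and 167 in cluster 4, and its Rbm20_homo level was likewise within 1.5-fold of WT in both. Adamtsl1 was lower in Rbm20_homo in cluster 4 (18.6 against 64.5 CPM, from 155 and 11 UMIs) but higher in cluster 1 (114 against 64.6 CPM, 1.77-fold, 1.38 to 2.25) and in cluster 9 (107 against 46.2 CPM). Adamts15 showed the same split, at 5.87 against 52.8 CPM in cluster 4 (49 and 9 UMIs) and 73.0 against 32.5 in cluster 1 (2.25-fold, 1.62 to 3.09). Adamts14 was at 31.7 against 32.2 CPM in cluster 1. Mmp27 was level in cluster 1 (13.4 against 13.3 CPM, from 11 and 50 UMIs) and at 3.47 against 46.9 CPM in cluster 4, from 29 and 8 UMIs, too few to compare. Mmp11 was lower in cluster 1 (6.09 against 40.2 CPM) but not in cluster 4 (8.26 against 5.86 CPM, from 69 UMIs and 1). Mmp3 had too few UMIs to compare Rbm20_homo with WT within these clusters. It was at 4.87 against 9.84 CPM in cluster 1 (4 and 37 UMIs) and 1.56 against 11.7 in cluster 4 (13 and 2 UMIs). Timp1 was at 6.09 against 0.798 CPM in cluster 1, from 5 and 3 UMIs, and at 8.62 against 5.86 in cluster 4, from 72 UMIs and 1. In the corrected library Timp1 was at 7.18 CPM in cluster 4 (3 UMIs) and 11.1 in cluster 9 (12 UMIs). Rbm20_homo had 0 UMIs of Timp1 in cluster 9. Adamts6 was lower in Rbm20_homo in cluster 4 (186 against 287 CPM) but higher in cluster 1 (146 against 118) and cluster 9 (259 against 126). Adamts19 was lower in cluster 4 (70.7 against 188 CPM) but higher in cluster 1 (75.5 against 38.6). Adamts12 was highest in the corrected library within each cluster, at 418, 524 and 592 CPM in clusters 1, 4 and 9, against 219, 475 and 262 in WT. In cluster 4 its Rbm20_homo level was 3.09-fold below WT (2.44 to 3.87). Cluster 4 holds only 58 WT nuclei and cluster 9 only 50 Rbm20_homo nuclei, and the share of a class difference that comes from the change of clusters was not tested.

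**Figure D3:**
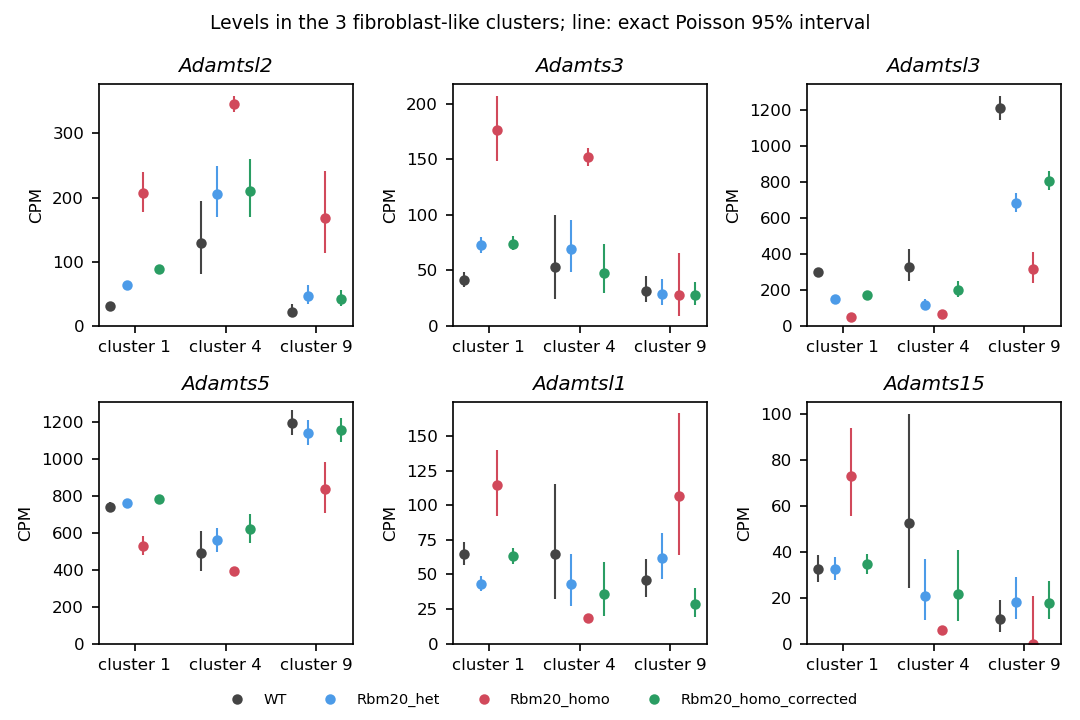
Level of 6 genes by fibroblast-like cluster (1, 4 and 9) and library, as CPM with the exact Poisson 95% interval. Adamtsl2 is higher and Adamtsl3 lower in Rbm20_homo than in WT in each cluster, whereas Adamtsl1 differs in opposite directions in clusters 1 and 4.

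In ventricular cardiomyocyte-like nuclei, Rbm20_homo had more Mmp23, Adamts2, Timp3 and Adamts1 than WT, and less Adamts7, Mmp15 and Adamts3. Of 28 genes compared, 10 were higher and 4 lower, where 12.0% of all 13068 genes compared were higher and 22.1% lower, 34.1% in all. The median log2 ratio was 0.20 for the 28 genes and -0.19 for all genes. Many of these genes are low in these nuclei compared with the lineage where they are highest: with a level of at least 0.2 of that lineage required, 5 calls were left (Mmp23 and Adamts1 higher, Adamts7, Mmp15 and Adamts3 lower). The 10 fibroblast markers summed in these nuclei to 1627 CPM (WT), 2088 (Rbm20_het), 1859 (Rbm20_homo) and 1891 (corrected), and 6 of the 10 were at least 1.5-fold higher in Rbm20_homo than in WT. Their part in the higher calls was not tested.

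Adamts7 had its highest lineage here (ENSMUSG00000032363, plus strand, chr9:90163069-90208071) and was at 59.8 CPM (WT), 57.4 (Rbm20_het), 18.8 (Rbm20_homo) and 53.2 (corrected). Rbm20_homo alone was low, 3.19-fold below WT (2.82 to 3.60), and the corrected library was 2.83-fold above it (2.50 to 3.21). Within cluster 0 the level was 60.5 CPM in WT and 35.1 in Rbm20_homo, the latter from 17 UMIs. Within cluster 3 it was 19.2 in WT, from 5 UMIs, and 18.4 in Rbm20_homo. Tbc1d2b, which overlaps the end of Adamts7 on the opposite strand, was at 8.58, 8.79, 5.29 and 6.58 CPM. Adamts3 was at 105, 121, 65.1 and 93.7 CPM, with Rbm20_homo lowest at 1.61-fold below WT (1.5007 to 1.74), but in cluster 0 it was at 106 CPM in WT and 124 in Rbm20_homo. In cluster 3 it was at 34.5 CPM in WT, from 9 UMIs, and 63.6 in Rbm20_homo, so Rbm20_homo was not lower within either cluster. Mmp15 was at 40.2, 40.0, 23.5 and 32.4 CPM, again lowest in Rbm20_homo. In cluster 0 Mmp15 was at 40.6 CPM in WT and 18.6 in Rbm20_homo, the latter from 9 UMIs. In cluster 3 it was at 19.2 in WT, from 5 UMIs, and 23.6 in Rbm20_homo, so not lower.

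Mmp23, a membrane-anchored MMP (ENSMUSG00000029061, minus strand, chr4:155650655-155653384), was at 3.85 CPM (WT), 5.43 (Rbm20_het), 23.1 (Rbm20_homo) and 4.22 (corrected). Rbm20_homo stood apart at 5.99-fold WT (4.59 to 7.95), and the other 3 libraries were close together. In cluster 0 Mmp23 was at 3.35 CPM in WT and 14.5 in Rbm20_homo, while in cluster 3, with 42 WT nuclei, it was at 34.5 and 23.3. Adamts1 was at 20.3 CPM (WT), 18.9 (Rbm20_het), 44.9 (Rbm20_homo) and 7.09 (corrected), so the corrected library was the lowest, 6.33-fold below Rbm20_homo (5.20 to 7.79) and 2.86-fold below WT (2.30 to 3.58). Timp3 was at 16.3, 35.5, 72.9 and 22.7 CPM and Adamts2 at 7.58, 13.4, 37.8 and 16.6 CPM, both lowest in WT and highest in Rbm20_homo. Adamts2 in Rbm20_homo was 4.99-fold WT (4.11 to 6.09) and Timp3 4.46-fold (3.91 to 5.10). Each was also higher within cluster 0, with Adamts2 at 43.3 against 7.58 CPM and Timp3 at 35.1 against 16.1.

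The remaining higher genes were at low levels in these nuclei. Adamtsl2 was at 1.43, 4.72, 11.1 and 4.79 CPM, Mmp2 at 2.18, 3.49, 5.65 and 5.30 CPM, Mmp28 at 2.73, 11.0, 6.11 and 5.30 CPM, and Timp2 at 7.89, 12.9, 12.7 and 8.94 CPM. Timp4 was at 1.18, 2.52, 3.46 and 1.92 CPM, and Adamts20 at 1.62, 0.452, 4.43 and 1.47 CPM. WT was the lowest library for each of these genes except Adamts20. Adamtsl3, the fourth lower gene, was at 3.92, 3.23, 2.54 and 4.60 CPM. Adamtsl5, which has its highest lineage here, was at 248 CPM (WT), 209 (Rbm20_het), 350 (Rbm20_homo) and 165 (corrected), 2.12-fold lower in the corrected library than in Rbm20_homo (2.03 to 2.22). Adamtsl4 was at 65.3, 74.1, 56.2 and 66.9 CPM and differed little, as did Adamts6 (114, 117, 117 and 120 CPM) and Adamts9 (50.8, 61.9, 64.6 and 66.6 CPM).

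Rbm20_het had 8 of 26 genes higher than WT and 0 lower in cardiomyocyte-like nuclei, where 5.63% of all genes were higher and 7.55% lower, 13.2% in all. Mmp28 had the largest of these ratios, 4.02 (2.87 to 5.73). With a level of at least 0.2 of the highest lineage required, 0 of these 8 calls were left. Fibroblast markers in these nuclei summed to 1627 CPM in WT and 2088 in Rbm20_het, and their part was not tested. Between the corrected library and Rbm20_homo 4 of 29 genes were higher and 8 lower, against 15.4% and 10.2% of all genes, 25.6% in all. The 4 higher were Adamts7, Adamts12, Adamts5 and Adamtsl3, and the 8 lower were Adamts1, Mmp23, Timp3, Adamts20, Adamtsl2, Adamts2, Adamtsl5 and Timp4. Between the corrected library and WT 6 of 26 were higher and 3 lower (Mmp16, Adamtsl5, Adamts1), against 6.20% and 8.92%, 15.1% in all. The 6 higher were Adamtsl2, Mmp2, Adamts2, Mmp28, Adamts12 and Adamts5. By the same requirement on level, 4 calls of the corrected library were left against Rbm20_homo and fewer against WT. Adamts5 was at 6.71, 10.1, 7.53 and 14.2 CPM, Adamts12 at 3.17, 3.04, 3.31 and 7.60 CPM and Mmp16 at 3.67, 3.62, 2.75 and 2.36 CPM in these nuclei, and the corrected library was the highest for the first pair and the lowest for Mmp16.

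**Figure D4:**
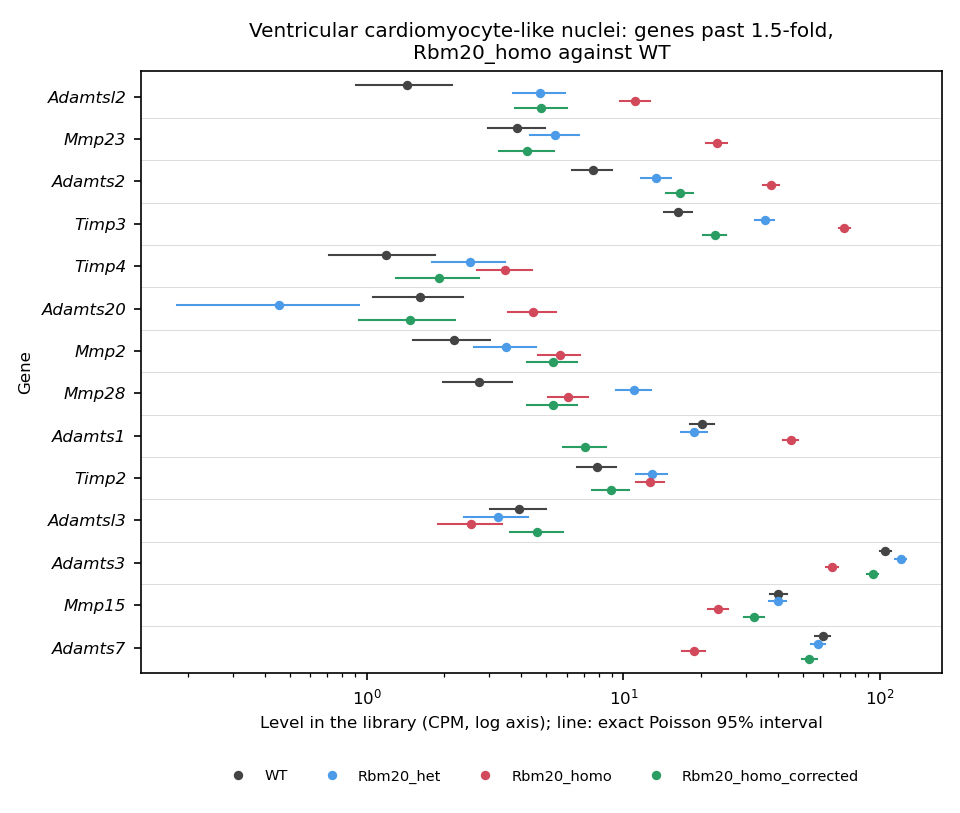
Levels in ventricular cardiomyocyte-like nuclei of the genes past 1.5-fold between Rbm20_homo and WT, as CPM on a log axis with exact Poisson 95% intervals, 1 point per library. Mmp23, Timp3 and Adamts2 have their highest point in Rbm20_homo, and Adamts7 its lowest.

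In endothelial-like nuclei, the inhibitors Timp3 and Timp4 were higher and Adamts9 lower in Rbm20_homo than in WT. Of 22 genes compared, 7 were higher (Adamtsl2, Adamtsl4, Adamts6, Mmp2, Timp2, Timp3, Timp4) and 3 lower (Adamts9, Adamts17, Adamts7), where 9.90% of all genes were higher and 9.31% lower, 19.2% in all. Fibroblast markers in these nuclei summed to 699.5 CPM (WT), 1013 (Rbm20_het), 1360 (Rbm20_homo) and 1139 (corrected). Of the 10 markers, 8 were at least 1.5-fold higher in Rbm20_homo than in WT, and their part in the higher genes was not tested.

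Timp4, the inhibitor known for its high level in heart, was at 116 CPM (WT), 217 (Rbm20_het), 213 (Rbm20_homo) and 136 (corrected). WT and the corrected library were low, and Rbm20_het and Rbm20_homo were high and level with each other. Rbm20_het was 1.87-fold (1.61 to 2.18) and Rbm20_homo 1.84-fold (1.58 to 2.16) above WT. Timp3 had the same order of high and low libraries, at 323, 489, 570 and 334 CPM, with Rbm20_homo 1.77-fold above WT (1.61 to 1.94). It was higher both in cluster 2 (519 against 304 CPM) and in the Sema3g- and Gja5-bearing cluster 12 (923 against 544 CPM). Syn3, whose span holds Timp3 on the opposite strand, was at 39.5, 59.6, 131 and 43.9 CPM, and Syn2, whose span holds Timp4, at 11.5, 18.3, 18.5 and 12.0 CPM.

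Adamts9, which has its highest lineage in these nuclei (chr6:92772699-92943492, minus strand), was at 745 CPM (WT), 494 (Rbm20_het), 450 (Rbm20_homo) and 875 (corrected). Rbm20_het and Rbm20_homo were low, the latter by 1.65-fold against WT (1.53 to 1.79), and the corrected library was the highest. In cluster 2 the level was 772 CPM in WT and 484 in Rbm20_homo, and in cluster 12 it was 418 and 221. Adamts17 was at 44.1, 28.8, 14.997 and 19.9 CPM, with WT the highest, and Adamts7 at 16.1, 14.0, 7.06 and 15.5 CPM, with Rbm20_homo the lowest. Adamts6 was at 69.4, 89.9, 149.5 and 98.9 CPM, Timp2 at 29.0, 25.3, 46.8 and 22.1 CPM, and Adamtsl4 at 12.4, 14.8, 24.3 and 13.4 CPM. Each was highest in Rbm20_homo, as was Adamtsl2 at 5.52, 7.01, 31.3 and 4.63 CPM. Mmp15 was at 46.9, 28.0, 33.5 and 77.1 CPM and Mmp28 at 84.1, 109, 102 and 78.2 CPM. Adamts18 reached 49 UMIs over the 4 libraries, at 1.38 to 6.27 CPM.

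Against WT, Rbm20_het had 3 of 22 genes higher (Timp4, Adamtsl3, Timp3) and 5 lower (Adamts9, Adamts17, Mmp15, Adamtsl5, Adamts1) in endothelial-like nuclei, where 4.48% of all genes were higher and 6.25% lower, 10.7% in all. Between the corrected library and Rbm20_homo 4 of 24 genes were higher (Adamts9, Mmp15, Adamts7, Adamts5) and 7 lower (Adamtsl2, Adamtsl4, Mmp23, Timp2, Timp3, Timp4, Adamts6), against 7.94% and 10.0%, 18.0% in all. Between the corrected library and WT, Mmp15 was higher and Adamts17 lower among 22 genes, against 5.33% and 6.06%, 11.4% in all. Adamtsl3 was at 67.1, 102, 91.7 and 64.8 CPM, highest in Rbm20_het. Adamts1 was at 66.2, 38.5, 59.99 and 46.3 CPM and Adamtsl5 at 29.9, 16.7, 29.6 and 21.0 CPM, both lowest in Rbm20_het. Mmp2 was at 12.4, 11.3, 21.2 and 17.7 CPM, Mmp23 at 5.52, 7.01, 12.8 and 7.63 CPM and Adamts5 at 57.5, 47.1, 41.9 and 78.5 CPM, the last lowest in Rbm20_homo and highest in the corrected library.

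Smaller lineages gave fewer genes to compare. In endocardial-like nuclei 6 of 19 genes were higher and 2 lower in Rbm20_homo than in WT, against 11.6% and 8.17% of all genes. In these nuclei the 10 fibroblast markers summed to 2203 CPM (WT), 3125 (Rbm20_het), 2918 (Rbm20_homo) and 2309 (corrected), with 5 at least 1.5-fold higher in Rbm20_homo than in WT. The 12 cardiomyocyte markers summed to 9193, 5633, 4468 and 7925 CPM, with 10 at least 1.5-fold lower. The part of either list in the levels below was not tested. The largest was Adamtsl2, at 6.74 CPM (WT), 17.7 (Rbm20_het), 86.2 (Rbm20_homo) and 21.5 (corrected), followed by Adamts3 at 14.6, 27.0, 55.7 and 33.8 CPM. Both were highest in Rbm20_homo and lowest in WT. Adamts1, highest in this lineage, was at 89.9, 54.9, 73.6 and 60.4 CPM. The other higher genes were Adamts2 at 42.7, 67.9, 101 and 58.4 CPM, Adamtsl1 at 14.6, 63.3, 47.1 and 21.5 CPM, Mmp28 at 52.8, 76.3, 85.5 and 70.6 CPM and Timp2 at 60.7, 85.6, 92.1 and 70.6 CPM. WT was the lowest library for each of the 4. Adamts17 (32.6, 30.7, 17.2 and 77.8 CPM) and Adamtsl3 (80.9, 113, 39.1 and 76.8 CPM) were the lower genes, each lowest in Rbm20_homo. In other comparisons of this lineage, Timp3 (232, 352, 242 and 295 CPM), Timp4 (10.1, 44.7, 14.6 and 21.5 CPM) and Adamts5 (141, 226, 126 and 148 CPM) were highest in Rbm20_het, and Adamts9 (91.1, 88.4, 79.5 and 154 CPM) and Mmp14 (14.6, 10.2, 21.2 and 36.9 CPM) in the corrected library. Mmp2 (31.5, 35.4, 45.7 and 29.7 CPM), Adamtsl5 (39.3, 27.0, 34.5 and 21.5 CPM) and Mmp16 (33.7, 40.0, 30.5 and 20.5 CPM) were lowest in the corrected library. For Mmp16 and Adamtsl5 the sign of a ratio with the corrected library turned under other settings. The Rbm20_homo level of Adamtsl2 was the highest of the 4 libraries in each of the 12 lineages, from 8 UMIs in B cell-like to 3093 in fibroblast-like nuclei, and the part of free RNA in the droplets was not tested.

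In lymphatic endothelial-like nuclei Adamts9 and Adamts5 were higher in Rbm20_homo than in WT and 0 of 8 genes lower, against 10.8% and 7.06% of all genes. Adamts9 was at 97.3 CPM (WT), 61.9 (Rbm20_het), 222 (Rbm20_homo) and 173 (corrected). The 10 fibroblast markers in these nuclei summed to 603.6, 744.6, 1442 and 1124 CPM, and all 10 were at least 1.5-fold higher in Rbm20_homo than in WT, with Tcf21 at 0 in a library. Their part in the levels of Adamts5, which is highest in fibroblast-like nuclei, was not tested. Adamtsl1 was at 1012, 667, 912 and 1083 CPM, Timp3 at 726, 969, 995 and 777 CPM, and Mmp14 at 77.9, 52.7, 67.7 and 69.5 CPM, so the 3 genes highest in this lineage were within 1.5-fold between Rbm20_homo and WT. In pericyte-like nuclei 1 of 13 genes was higher (Mmp14) and 3 lower (Adamts3, Adamts17, Mmp15), against 8.46% and 11.1%. Adamts17, highest in pericyte-like nuclei, was at 121, 91.4, 49.2 and 125 CPM, and Rbm20_homo alone was low. Adamts12 was at 225, 224, 278 and 362 CPM there. The higher gene, Mmp14, was at 36.8, 34.7, 56.2 and 35.7 CPM, and the other lower genes were Adamts3 at 35.9, 21.5, 20.1 and 33.0 CPM and Mmp15 at 42.0, 40.6, 16.1 and 33.9 CPM. Rbm20_homo was the highest of the 4 for Mmp14 and the lowest for Adamts3 and Mmp15. Adamts9 (116, 106, 166 and 85.4 CPM), Timp2 (8.76, 16.1, 28.1 and 14.5 CPM) and Adamts1 (16.6, 15.5, 23.1 and 14.0 CPM) were also highest in Rbm20_homo and at least 1.5-fold lower in the corrected library. Mmp11 (25.4, 15.5, 21.1 and 14.0 CPM) was highest in WT, and Adamts10 (138, 87.8, 114 and 96.7 CPM) and Adamts6 (24.5, 13.1, 26.1 and 24.0 CPM) were lowest in Rbm20_het. The 10 fibroblast markers in pericyte-like nuclei summed to 3633, 3894, 3919 and 3870.2 CPM, with 5 at least 1.5-fold higher in Rbm20_homo than in WT, and their part was not tested. Adamtsl4 (14.0, 21.5, 25.1 and 20.3 CPM), Mmp2 (11.4, 9.56, 28.1 and 19.0 CPM) and Adamts5 (21.9, 25.7, 31.1 and 40.2 CPM) were lower in WT than in Rbm20_homo or the corrected library. In lymphatic endothelial-like nuclei Adamts5 was at 66.8, 101, 153 and 132 CPM and Adamts6 at 108, 82.5, 95.3 and 67.1 CPM, the sign of whose corrected-to-WT ratio turned with thinned nuclei.

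Adamts14 in smooth muscle-like nuclei was at 97.7 CPM (WT), 114 (Rbm20_het), 145 (Rbm20_homo) and 51.8 (corrected), from 132 UMIs in all. The corrected library was the lowest, whereas in fibroblast-like nuclei it was the highest. Macrophage-like nuclei held Mmp13 at 16.4, 14.8, 8.08 and 26.0 CPM from 73 UMIs, and Mmp12 from 33 UMIs, at 1.48 to 13.3 CPM. Timp2 in mesothelial-like nuclei was at 229, 385, 333 and 304 CPM, lowest in WT. Adamts20 in Schwann-like nuclei was at 89.7, 56.7, 65.5 and 129.9 CPM from 52 UMIs, Mmp17 had 21 UMIs there (8.97 to 65.5 CPM), and Adamts6 in B cell-like nuclei was at 124, 119, 134 and 182 CPM from 93 UMIs.

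Adamts12 was highest in the corrected library in each of the 12 lineages, from 19 UMIs in B cell-like to 3910 in fibroblast-like nuclei of that library. Besides the lineages above, it was at 72.0, 80.5, 157 and 252 CPM in smooth muscle-like, 197, 183, 131 and 404 CPM in Schwann-like and 7.63, 8.90, 13.5 and 23.3 CPM in macrophage-like nuclei. Adamts5 was likewise highest in the corrected library in smooth muscle-like (56.6, 43.6, 71.1 and 174 CPM) and macrophage-like nuclei (26.2, 38.6, 39.5 and 76.7 CPM), but in Schwann-like nuclei it was highest in WT (386, 257, 149 and 188 CPM). Fibroblast markers summed to 1676, 2049, 2079.7 and 2438 CPM in smooth muscle-like nuclei, highest in the corrected library, and to 6134, 6487, 5262 and 5498 CPM in Schwann-like nuclei. Their part, and that of free RNA, in these levels was not tested.

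Among the remaining macrophage-like values, Adamtsl2 was at 5.45, 2.97, 46.7 and 9.34 CPM and Timp3 at 22.9, 62.3, 56.6 and 30.7 CPM. Both had their highest level in another lineage, and the 10 fibroblast markers in these nuclei summed to 1051 CPM (WT), 1148 (Rbm20_het), 1471 (Rbm20_homo) and 1196 (corrected), with 8 at least 1.5-fold higher in Rbm20_homo than in WT. Adamts3 (32.7, 17.8, 19.7 and 14.0 CPM) and Adamtsl5 (88.3, 65.3, 70.9 and 45.3 CPM) were highest in WT, and the sign of the Rbm20_homo ratio of Adamts3 turned without doublet removal. Both genes were highest in cardiomyocyte-like nuclei in 3 of the 4 libraries, and the 12 cardiomyocyte markers in macrophage-like nuclei summed to 18433, 9714, 10726 and 10226 CPM, with 9 lower by 1.5-fold or more in Rbm20_homo against WT. The part of either marker list was not tested. Adamts9 in macrophage-like nuclei was lowest in Rbm20_homo, at 42.5, 31.2, 25.1 and 43.3 CPM. Adamts2 in smooth muscle-like nuclei was at 56.6, 53.7, 76.2 and 91.9 CPM, highest in the corrected library.

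In mesothelial-like nuclei, which numbered 177 in all, Timp3 was at 82.3, 147, 314 and 131 CPM and was highest in Rbm20_homo. Adamts2 (64.0, 183, 160.1 and 124 CPM) and Adamts10 (128, 183, 202 and 152 CPM) were lowest in WT, Adamtsl1 (695, 1191, 409.9 and 995 CPM) was lowest in Rbm20_homo, and Adamtsl5 (265, 91.6, 154 and 111 CPM) was highest in WT. Adamtsl5 was highest in cardiomyocyte-like nuclei in the other 3 libraries, and the 12 cardiomyocyte markers in mesothelial-like nuclei summed to 14434, 3867, 4799.9 and 8823 CPM, with all 12 lower by 1.5-fold or more in Rbm20_homo against WT. Timp3 was highest in Rbm20_het in Schwann-like (233, 362, 238 and 231 CPM) and T cell-like nuclei (53.0, 309.7, 162 and 90.6 CPM), as was Adamts5 in T cell-like nuclei (148, 299, 205 and 153 CPM). Fibroblast markers in T cell-like nuclei had the same order as Adamts5, summing to 2195, 4789, 3786 and 2402 CPM, with 8 of the 10 at least 1.5-fold higher in Rbm20_homo than in WT. In B cell-like nuclei Timp3 was at 142, 192, 223 and 114 CPM and Adamts9 at 336, 119, 71.3 and 224 CPM, the latter lowest in Rbm20_homo. The 10 endothelial markers in B cell-like nuclei were in the order of Adamts9, an endothelial-highest gene, at a sum of 3283, 1829.6, 1479.7 and 2289 CPM, with 8 lower by 1.5-fold or more in Rbm20_homo against WT. The part of these marker lists in the mesothelial-, T cell- and B cell-like levels was not tested.

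**Figure D5:**
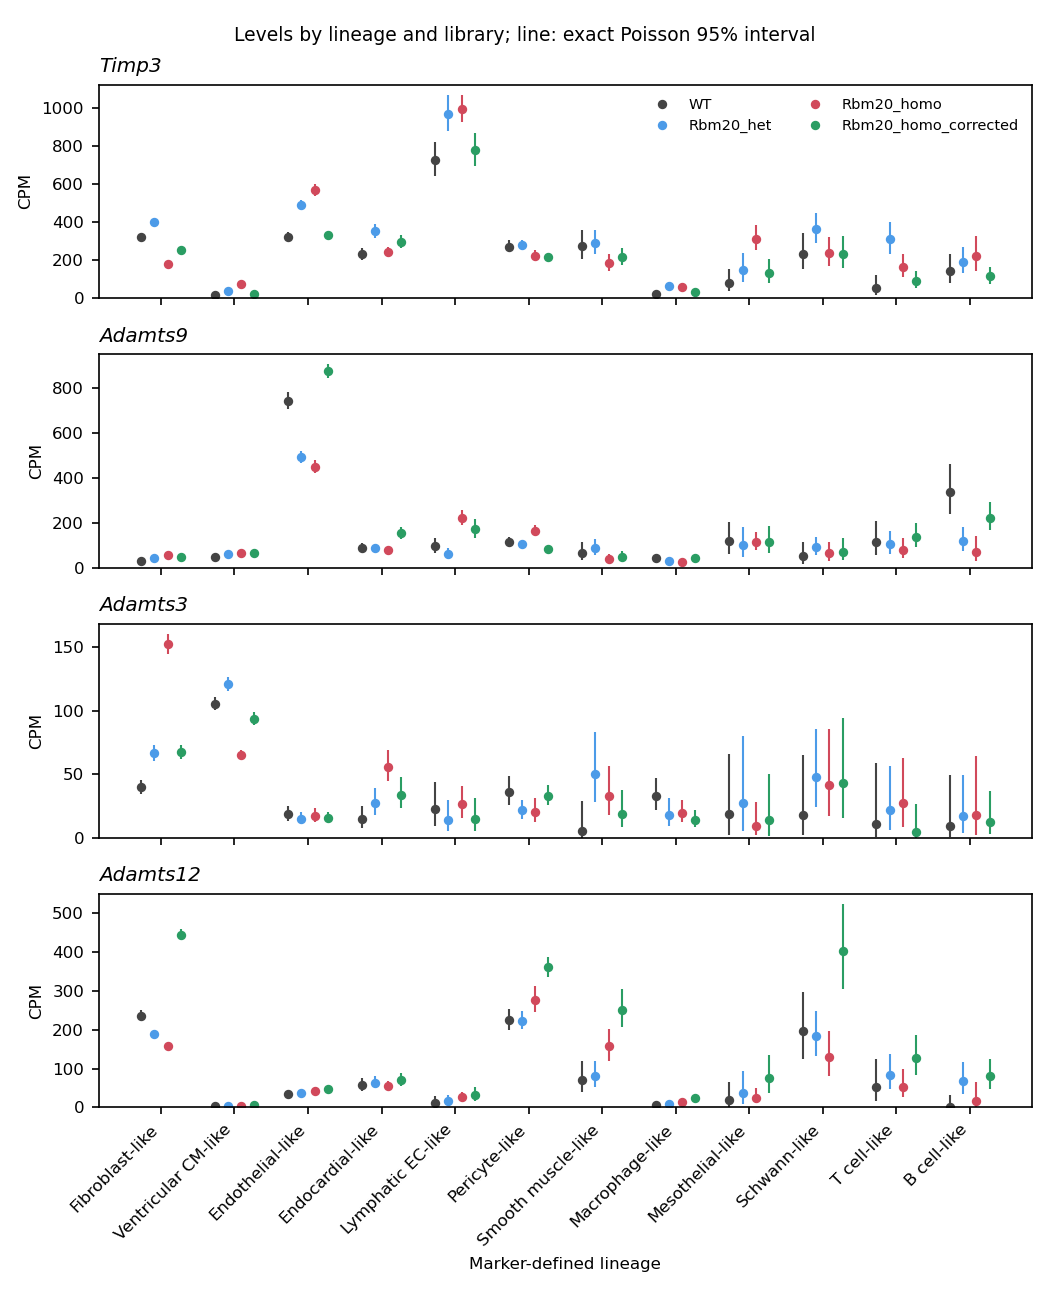
Levels of Timp3, Adamts9, Adamts3 and Adamts12 by lineage and library, as CPM with exact Poisson 95% intervals. Adamts12 is highest in the corrected library in each of the 12 lineages, while Timp3, Adamts9 and Adamts3 are higher in Rbm20_homo than in WT in some lineages and lower in others.

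Genes that the proteases act on were compared in the same way. In fibroblast-like nuclei 10 of 17 measured substrates were higher in Rbm20_homo than in WT and 1 lower, with a median log2 ratio of 0.75, where all genes had 14.1% and 8.82%. Col1a1, a chain of type I collagen and a target of the Adamts2, Adamts3 and Adamts14 propeptidases, was at 57.6 CPM (WT), 50.6 (Rbm20_het), 180.2 (Rbm20_homo) and 96.6 (corrected). Vcan, the proteoglycan versican cut by Adamts1, Adamts5 and Adamts9, was at 130.8, 138, 275 and 224 CPM, and Comp, the target of Adamts7 and Adamts12, at 2.42, 3.15, 27.2 and 1.48 CPM. All 3 were highest in Rbm20_homo. Thbs2 was the substrate that was lower, at 75.3, 103, 23.5 and 58.9 CPM. Of other matrix proteases and crosslinking enzymes, 3 of 15 were higher (Lox, Loxl3, Adam12) and 4 lower (Adam19, Loxl2, Pcolce2, Tll2). In Rbm20_het 0 of 16 substrates passed 1.5-fold against WT in either direction, where 7.98% of all genes did.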

How the data were processed

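The authors deposited 4 matrices of unnormalised UMI counts, which they made with Cell Ranger 6.1.1, per the submitters' processing notes (the matrix headers name 4.0.0), on mm10. Whether introns were counted, and on which strand, is not given in the sources used here. Genotypes come from the sample labels, and each is 1 library of 3 pooled hearts. Barcodes under 300 genes or over 5% mitochondrial UMIs were left out, and the highest Scrublet scores were removed at 0.8% per 1000 barcodes. Clustering used scanpy 1.11.5: 2000 variable genes without the described genes, 30 principal components, 20 neighbours and Leiden resolution 0.8. A cluster was named when at least 3 markers of a type were 3-fold over the median cluster and in 5% of its nuclei. UMIs were summed by lineage and library, and CPM had non-mitochondrial UMIs as denominator. Levels have exact Poisson and ratios exact conditional binomial 95% intervals. Counts simulated from the same Poisson model checked the calculation of the ratio intervals only, not their fit to these data. Alternatives were edgeR 4.0.16 TMM factors, DESeq2 1.42.0 size factors, thinned nuclei and other filters. Each described gene is named. Values in every library are given for those with at least 100 UMIs in their highest lineage or past 1.5-fold in any comparison. Described genes, lists and markers were chosen with earlier results of these data known. Promoters are RefSeq (GRCm38.p6), gene positions GENCODE vM21. Depth per library was 37180791 to 52370368 UMIs.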

Additional observations from a re-analysis of the deposited data

Results flagged for a closer look

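These genes had ratios past 1.5-fold in opposite directions in 2 lineages under the same comparison, counting only ratios whose whole interval lay past 1.5-fold and lineages at 0.2 or more of the gene's highest level. Each ratio is between 1 library and 1 library, and the difference between lineages was not tested. The log2 ratio of Adamts3 in Rbm20_homo against WT was 1.94 in fibroblast-like and 1.93 in endocardial-like nuclei, but -0.69 in ventricular cardiomyocyte-like nuclei. For Timp3 in the same comparison it was -0.84 in fibroblast-like, 0.82 in endothelial-like and 1.93 in mesothelial-like nuclei. Adamts9 was at -0.73 in endothelial-like and 1.19 in lymphatic endothelial-like nuclei in Rbm20_homo against WT. In the corrected library against Rbm20_homo, Adamts9 was at 0.96 in endothelial-like and -0.95 in pericyte-like nuclei, and Adamts14 at 1.99 in fibroblast-like and -1.48 in smooth muscle-like nuclei. In the corrected library against WT, Adamts17 was at -1.15 in endothelial-like and 1.25 in endocardial-like nuclei. Other opposite ratios missed those conditions. In Rbm20_homo against WT, Adamts5 was 1.999-fold lower in fibroblast-like nuclei but had a log2 ratio of 1.20 in lymphatic endothelial-like nuclei, Adamtsl1 was at -1.08 in fibroblast-like and 1.69 in endocardial-like nuclei, and Timp3 was at 2.16 in ventricular cardiomyocyte-like nuclei. Some of these ratios did not hold within single clusters. Adamts3 was higher in Rbm20_homo than in WT in both cardiomyocyte-like clusters. It was at 124 against 106 CPM in cluster 0 and 63.6 against 34.5, from 9 WT UMIs, in cluster 3. Timp3 was only 1.16-fold lower in fibroblast-like cluster 1 and 1.30-fold lower in cluster 4. Adamtsl1 was 1.77-fold higher in cluster 1. The part of the change of clusters was not tested.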

How the results depend on the processing

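No paired analysis was possible because each genotype is 1 library. Of 609 ratios of described genes, 598 stayed within their interval with TMM factors and 598 with size factors, 604 with at least 500 genes per nucleus, 589 at Leiden resolution 1.6, 607 with the described genes allowed in clustering, 547 without doublet removal and 493 with nuclei thinned to 1000 UMIs. Without the fibroblast cluster led by Efhd1 and Has2, 115 fibroblast-like ratios stayed within it and 18 did not. Counts of genes past the fold moved as follows. Fibroblast-like: Rbm20_homo against WT 16 became 9 at 2-fold, Rbm20_het against WT 6 became 3 at 2-fold and 3 where the interval had to lie beyond the fold, and corrected against WT 12 became 5 at 2-fold. Ventricular cardiomyocyte-like: Rbm20_homo against WT 14 became 8 thinned, 9 with 200 UMIs and 5 with a level of at least 0.2 of the highest lineage. Rbm20_het against WT 8 became 3 thinned, 5 with 200 UMIs, 4 at 2-fold, 0 by level and 3 by interval. Corrected against Rbm20_homo 12 became 4 by level, and corrected against WT 9 became 4 thinned, 4 with 200 UMIs and 2 by level. Endothelial-like: Rbm20_homo against WT 10 became 4 with 200 UMIs, 4 at 2-fold and 6 by interval. Rbm20_het against WT 8 became 4 thinned, 5 with 200 UMIs, 0 at 2-fold and 1 by interval. Corrected against Rbm20_homo 11 became 6 with 200 UMIs, 4 at 2-fold, 7 by level and 5 by interval. Corrected against WT 2 became 4 thinned, 4 without doublet removal, 6 with 20 UMIs, 1 with 200 UMIs, 1 at 2-fold and 1 by interval. Log2 ratios that changed sign were, thinned, Adamts7 in fibroblast-like (Rbm20_homo against WT, 0.38), Adamtsl5 in endocardial-like (corrected against Rbm20_homo 0.12, against WT 0.62) and mesothelial-like (Rbm20_homo against WT, 0.050), Timp2 in mesothelial-like (Rbm20_het against WT, -0.54) and Adamts6 in lymphatic endothelial-like nuclei (corrected against WT, 0.30). Without doublet removal they were Mmp16 in endocardial-like (corrected against WT, 0.026) and Adamts3 in macrophage-like nuclei (Rbm20_homo against WT, 0.16). At resolution 1.6 they were Mmp16 (corrected against WT, 0.43) and Adamtsl5 (corrected against Rbm20_homo, 0.55) in endocardial-like nuclei. The cause was not tested. Ratios that rest on few UMIs, as in mesothelial-, Schwann- and T cell-like nuclei, have wide intervals.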
